A study of Homo sapiens with 18 samples.

Results

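The 10 genes of the COPII coat were followed through RNA-Seq of HEK293doxERN2 cells, a human embryonic kidney line in which doxycycline switches on a FLAG-tagged human ERN2 transgene. They were taken by name, as the core coat subunits and their GTPases, from the 25435 rows of the count table, and each name had a row. Their products are the GTPases SAR1A and SAR1B, the inner coat subunits SEC23A, SEC23B, SEC24A, SEC24B, SEC24C and SEC24D, and the outer coat subunits SEC13 and SEC31A. ERN2 (IRE1β) is the epithelial paralog of the ER stress sensor ERN1 (IRE1α). Cells had no doxycycline (No ERN2), 10 ng/mL (Low ERN2) or 100 ng/mL (High ERN2) for 24 hours, and at each dose were given DMSO (vehicle) or thapsigargin, which blocks the calcium pump of the ER, at 200 nM for 3 hours. Each of the 6 groups had 3 libraries, 18 in all. No group lacked the transgene, and no group had doxycycline without it, so effects of the drug and of ERN2 cannot be told apart.

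COPII vesicles carry newly made secretory and membrane proteins out of the ER. SAR1, loaded with GTP by PREB (SEC12), inserts into the ER membrane and recruits SEC23-SEC24 dimers, in which SEC23 stimulates the GTPase and SEC24 binds the sorting signals of cargo. SEC13-SEC31 rods then crosslink the inner coat into a cage. Vertebrates have several SEC24 paralogs that differ in the cargo signals they bind, and the coat genes are among those that the unfolded protein response can raise when secretory load grows.

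Library totals ran from 14876416 to 24652240 counts, and a member had between 556 and 9072 counts in a library. Levels are given as CPM, counts relative to the library total after TMM scaling over the 18 libraries, in the order of replicates 1, 2 and 3. ERN2 itself had 6.57 to 9.10 CPM in uninduced vehicle libraries, 22.5 to 55.9 at 10 ng/mL and 249 to 309 at 100 ng/mL. With thapsigargin it had 10.4 to 14.2 CPM uninduced and 32.1 to 112 at 10 ng/mL. At 100 ng/mL with thapsigargin it had 272 CPM in replicate 1 but 175 in replicates 2 and 3, below each vehicle library of that dose. The kidney line's markers VIM, KRT18 and NEFL were expressed in every library, and the colon goblet markers TFF3, CLCA1 and ZG16 were at 0 and MUC2 at most at 0.243 CPM in every library, although the labels' extraction text speaks of colon crypt cells. Log2 fold changes (± SE) and adjusted p-values are from edgeR's quasi-likelihood test over all genes that passed its filter, and a gene was called at an adjusted p under 0.01, the threshold of the study. All 10 members passed the filter in each comparison. The labels do not say whether the 3 libraries of a group came from separate cultures, so these p-values measure only the spread between libraries. In bulk RNA, a change in the share of cells that express a gene and a change per cell cannot be told apart.

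In vehicle-treated cells, the members that edgeR called higher with induction of ERN2 were SEC24D, SEC24C and SEC23B, all of the inner coat. SEC24D moved most, 2.09-fold higher at 10 ng/mL and 3.12-fold at 100 ng/mL, and SEC24C was 1.61-fold and 1.82-fold higher. SEC23B was called at 100 ng/mL, where it was 1.68-fold higher. DESeq2 also called SEC23B at 10 ng/mL, with 0.499% of all genes higher, and SEC13 of the outer coat at 100 ng/mL, with 1.36% higher. No member was called lower at either dose. At 10 ng/mL edgeR called 2 of the 10 members higher, where 0.138% of all genes tested were higher and 0.0552% lower. At 100 ng/mL it called 3 of 10, where 0.838% were higher and 7.49% lower. The study had itself listed SEC13, SEC23B and SEC24D among genes higher at 100 ng/mL in these libraries, so their direction is not independent evidence. The median log2 difference of the 10 members was 0.06 with the low dose and 0.22 with the high dose, against 0.0024 and -0.0068 over all genes. The first ran from 0.0022 without replicate 1 at 10 ng/mL to 0.10 without replicate 2.

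**Figure D1:**
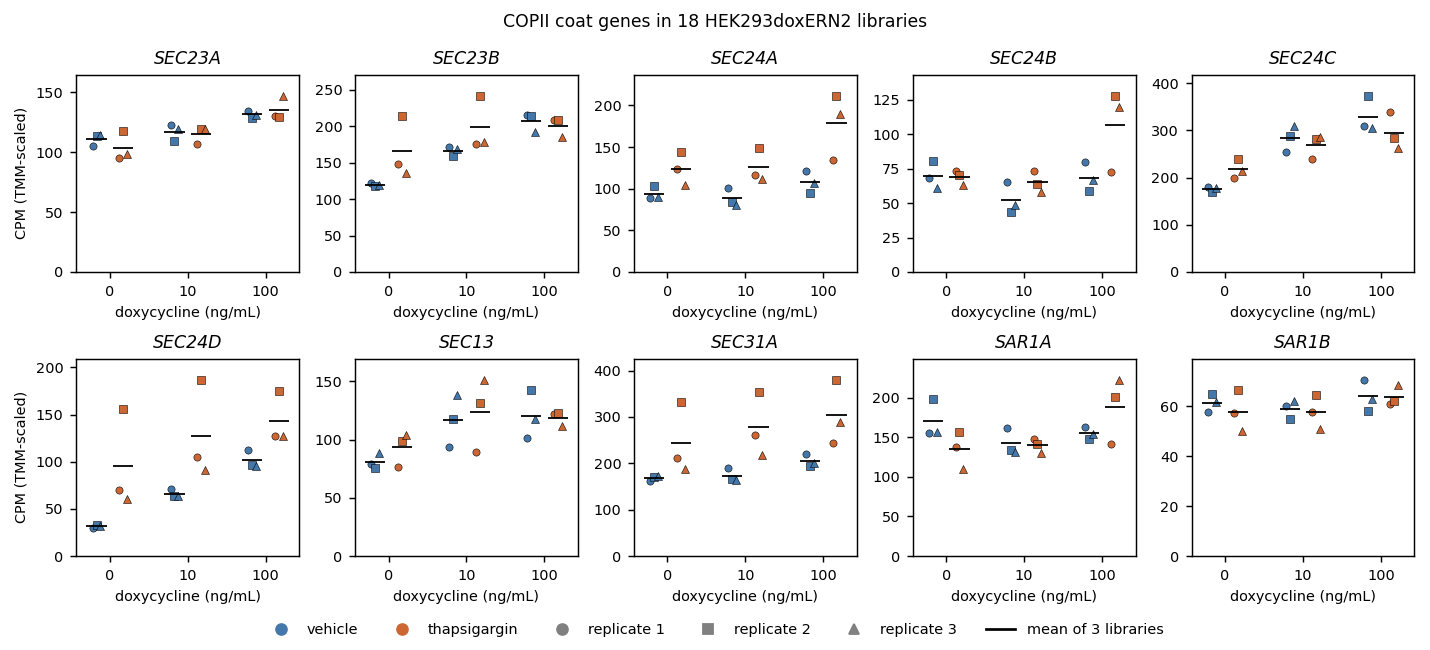
TMM-scaled CPM of each COPII coat gene (y axis, from 0) against the doxycycline dose in ng/mL, with vehicle libraries in blue and thapsigargin libraries in orange. Each symbol is 1 library, its shape gives the replicate number, and lines are means of 3 libraries. SEC24D climbed from 29.9 to 33.2 CPM in uninduced vehicle libraries to 95.1 to 113 CPM at 100 ng/mL, while SAR1B stayed between 50.2 and 70.7 CPM in all 18.

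SEC24D, which recognises cargo signals as one of the SEC24C/D pair of paralogs, lies at chr4:118722823-118838683 on the minus strand of GRCh38. Uninduced vehicle libraries had 29.9, 33.2 and 31.8 CPM, the 10 ng/mL libraries 71.2, 63.8 and 63.8 CPM, and the 100 ng/mL libraries 113, 96.8 and 95.1 CPM. No library of one dose overlapped those of another. The log2 difference was 1.07 ± 0.12 (adjusted p = 0.00469) with the low dose, 1.64 ± 0.12 (adjusted p = 1.18e-06) with the high dose, and 0.59 ± 0.12 (adjusted p = 0.0164) between both doses, which did not pass the threshold.

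SEC24C, the other member of that pair, lies at chr10:73744384-73772161 on the plus strand. It had 180.4, 169.7 and 177 CPM without doxycycline, 255, 289 and 309 CPM at 10 ng/mL and 309.7, 374 and 305 CPM at 100 ng/mL. All induced libraries stood above all uninduced ones, and the libraries at 10 and 100 ng/mL overlapped. Its log2 difference was 0.69 ± 0.10 (adjusted p = 0.00936) with the low dose and 0.87 ± 0.11 (adjusted p = 0.000141) with the high dose.

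SEC24A and SEC24B are the other pair of SEC24 paralogs. With only the groups compared, all their libraries, its filter and no replicate block, edgeR called neither in any comparison. With all 6 groups in 1 fit it called SEC24A for thapsigargin at 100 ng/mL (1.55% of all genes higher). With no filter it called SEC24B from 10 to 100 ng/mL with thapsigargin (2.85% higher). SEC24A (chr5:134648789-134727823, plus strand) had 89.4, 103 and 90.3 CPM without doxycycline and 121, 95.4 and 107 CPM at 100 ng/mL. SEC24B (chr4:109433772-109540896, plus strand) had 68.4, 80.7 and 61 CPM without doxycycline, 65.3, 43.7 and 48.8 CPM at 10 ng/mL and 79.9, 58.7 and 66.7 CPM at 100 ng/mL. Both overlapped between doses, and the log2 value of SEC24B at 10 ng/mL was -0.41 ± 0.16 (adjusted p = 0.114).

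SEC23B (chr20:18507482-18561415, plus strand) activates the SAR1 GTPase in the inner coat. Its libraries had 122, 118 and 119 CPM without doxycycline, 171, 159 and 169 CPM at 10 ng/mL and 215, 214 and 192 CPM at 100 ng/mL, with no overlap between doses. The log2 difference was 0.47 ± 0.10 (adjusted p = 0.0494) with the low dose and 0.75 ± 0.10 (adjusted p = 0.000187) with the high dose. Its paralog SEC23A (chr14:39031919-39109646, minus strand) had 105, 114 and 114 CPM without doxycycline and 135, 129 and 131 CPM at 100 ng/mL. These libraries did not overlap either, but the log2 difference was 0.20 ± 0.10 with an adjusted p of 0.195.

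In the outer coat, SEC13 (chr3:10293131-10321178, minus strand) is a β-propeller protein that also serves in the nuclear pore and in the GATOR2 complex. It had 78.9, 75.2 and 88.3 CPM without doxycycline, 93.7, 117 and 139 CPM at 10 ng/mL and 101, 143 and 118 CPM at 100 ng/mL. Every induced vehicle library stood above the uninduced ones, but they spread widely. The edgeR log2 differences, 0.53 ± 0.14 (adjusted p = 0.0771) and 0.54 ± 0.14 (adjusted p = 0.0183), did not pass the threshold. DESeq2 called SEC13 higher at 100 ng/mL, where it called 1.36% of all genes higher. By edgeR it was called at both doses with no filter (0.781% and 1.2% of all genes higher). At 100 ng/mL it was also called without vehicle replicate 1 of that dose (1.47% higher). SEC31A (chr4:82818661-82901166, minus strand), the rod-forming partner of SEC13, had 162, 169.8 and 172 CPM without doxycycline and 220.3, 193 and 201 CPM at 100 ng/mL, a log2 difference of 0.24 ± 0.10 (adjusted p = 0.122). The GTPase genes SAR1A (chr10:70147289-70170523, minus strand) and SAR1B (chr5:134601144-134649271, minus strand) overlapped between groups in every comparison made.

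Without regard to the test, 4 members stood wholly above the uninduced vehicle libraries at 10 ng/mL (SEC23B, SEC24C, SEC24D and SEC13), as did 14.4% of all genes. At 100 ng/mL there were 6 (SEC23A and SEC31A in addition), against 19.7% of all genes. Between 10 and 100 ng/mL it was 4 members (SEC23A, SEC23B, SEC24D and SEC31A), against 10% of all genes, and none was called there, where 0.0137% of all genes were called higher and 2.43% lower. At an unadjusted p under 0.05, 2 members differed between both doses by edgeR, against 16.1% of all genes. DESeq2 called SEC24D alone, where it called 0.0602% of all genes higher. Each of the 10 members had a positive log2 value in that comparison. It was 9 without vehicle replicate 1 at 10 ng/mL or without vehicle replicate 2 at 100 ng/mL.

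The calls at 100 ng/mL held with each library left out in turn, with 3 or 4 members called. Those at 10 ng/mL did not. No member was called there without any 1 of the 3 uninduced vehicle libraries or without replicate 2 at 10 ng/mL. In each of those fits 0% of all genes were called. SEC24D alone was called without replicate 3 at 10 ng/mL, with 0.0752% of all genes higher. Without replicate 1, calls became more frequent across the table, with 8.05% of all genes higher and 10.7% lower. In that fit 5 members were called, of which SEC13, SEC23B, SEC24C and SEC24D were higher and SEC24B was lower (log2 value -0.60, adjusted p = 0.00304). The size of the SEC24D difference changed little, from 1.01 to 1.10 on the log2 scale over these 6 fits.

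**Figure D2:**
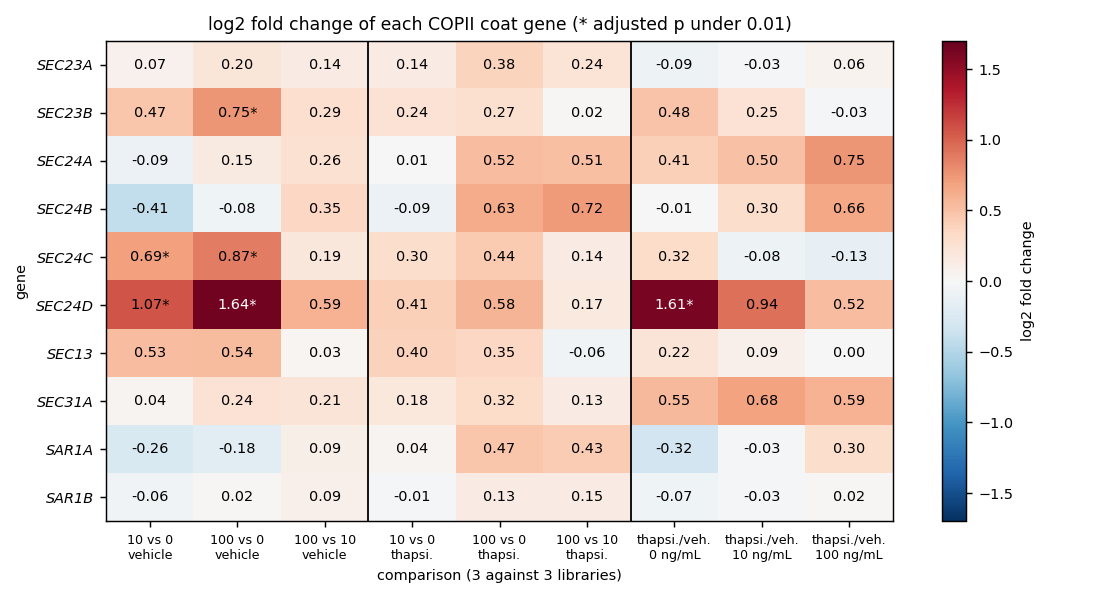
Log2 fold change of each of the 10 COPII coat genes (rows) in 9 comparisons of 3 against 3 libraries (columns), coloured from blue (lower) to red (higher), with a star at an adjusted p under 0.01. The 6 starred values are SEC24D at 10 and 100 ng/mL in vehicle and with thapsigargin at 0 ng/mL, SEC24C at both doses in vehicle, and SEC23B at 100 ng/mL in vehicle.

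Thapsigargin given to uninduced cells asked how the coat responds to ER stress without doxycycline. SEC24D was again the member that moved most, 3.05-fold higher, and the only one called, where 6.45% of all genes tested were called higher and 4.74% lower. The median log2 difference of the 10 members was 0.27, against -0.0066 over all genes, and 6 of 10 lay above 0. SEC31A (0.55 ± 0.17, adjusted p = 0.0352), SEC23B (0.48 ± 0.15, adjusted p = 0.0328), SEC24A (0.41 ± 0.13, adjusted p = 0.0336) and SEC24C (0.32 ± 0.10, adjusted p = 0.0411) missed the threshold. With SEC24D, these made 5 members whose thapsigargin libraries stood wholly above the vehicle libraries, against 20% of all genes.

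The SEC24D libraries had 70.2, 156 and 60.7 CPM with thapsigargin against 29.9, 33.2 and 31.8 CPM with vehicle. The groups did not overlap, but replicate 2 stood far above the other two. The log2 difference was 1.61 ± 0.27 (adjusted p = 0.00129), 1.06 (adjusted p = 0.000267) without that library, and it lost its call without replicate 1 of the vehicle group (adjusted p = 0.0105). SEC23B, SEC24A, SEC24D and SEC31A, 4 of the 10 members, had their highest library in replicate 2 of all 3 thapsigargin groups, which held for 3.38% of 14053 genes. The part of that replicate in these differences was tested only by leaving it out, which left SEC31A at 0.25 (adjusted p = 0.146) and SEC23B at 0.25 (adjusted p = 0.144) in uninduced cells.

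SEC31A had 212, 332 and 187 CPM with thapsigargin against 162, 169.8 and 172 CPM with vehicle in uninduced cells. At 10 ng/mL it had 262, 354 and 218 CPM against 189.5, 167 and 163 CPM, and at 100 ng/mL 243, 380.2 and 289.7 CPM against 220.3, 193 and 201 CPM. Its libraries separated at each of the 3 doses, always with thapsigargin higher. The log2 differences of 0.55 ± 0.17, 0.68 ± 0.17 and 0.59 ± 0.17 had adjusted p of 0.0352, 0.039 and 0.0771. DESeq2 called SEC31A at 10 ng/mL.

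SEC24A likewise separated at each dose, with 123, 144 and 105 CPM under thapsigargin at 0 ng/mL, 117, 149 and 112 CPM at 10 ng/mL and 135, 212 and 189.9 CPM at 100 ng/mL. Its log2 differences from vehicle were 0.41 ± 0.13, 0.50 ± 0.14 and 0.75 ± 0.18, with adjusted p of 0.0336, 0.0627 and 0.049. SAR1A had a value of -0.32 ± 0.14 (adjusted p = 0.117) in uninduced cells, with overlapping libraries, and SAR1B stayed within 0.08 of 0 on the log2 scale at each dose.

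In cells already given doxycycline, no member passed the test for thapsigargin. At 10 ng/mL, 1.16% of all genes were called higher and 0.294% lower, and at 100 ng/mL 0.18% and 0.0208%. At an unadjusted p under 0.05, 3 members differed at 10 ng/mL and 4 at 100 ng/mL by edgeR, against 24.7% and 27% of all genes. DESeq2 called SEC24D and SEC31A higher at 10 ng/mL, where it called 3.26% of all genes higher, and SEC24A at 100 ng/mL, where it called 1.32%. The SEC24D difference was 0.94 ± 0.23 (adjusted p = 0.0386) with the low dose and 0.52 ± 0.16 (adjusted p = 0.0965) with the high dose. Libraries above vehicle were found for 4 members at 10 ng/mL (SEC23B, SEC24A, SEC24D and SEC31A), against 15.6% of all genes, and for 3 at 100 ng/mL (SEC24A, SEC24D and SEC31A), against 10.7%.

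Thus the thapsigargin difference of SEC24D read 1.61, 0.94 and 0.52 at 0, 10 and 100 ng/mL, from a vehicle level that rose with dose. Without replicate 2 of the thapsigargin libraries these were 1.06, 0.55 and 0.34. The interaction tests this directly. The SEC24D response minus that in uninduced cells was -0.65 ± 0.43 (adjusted p = 0.779) with the low dose and -1.01 ± 0.39 (adjusted p = 0.138) with the high dose on the log2 scale, and neither passed. With each library left out in turn these ran from -1.04 (without replicate 2 at 10 ng/mL with thapsigargin) to -0.11 and from -1.30 (without replicate 1 of the uninduced thapsigargin libraries) to -0.50, the latter of each without replicate 2 of the uninduced thapsigargin libraries. No member was called for either interaction, where 0 and 0.0406% of all genes were. At an unadjusted p under 0.05, 1 and 4 members differed by edgeR, against 4.47% and 24.7% of all genes. DESeq2 called no member either, where it called 0.00968% and 1.61% of all genes.

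Among thapsigargin-treated libraries alone, the 10 members had a median log2 difference from 0 ng/mL of 0.16 with the low dose and 0.41 with the high dose, against -0.0035 and 0.044 over all genes. The first ran from 0.043 without replicate 2 at 10 ng/mL to 0.31 without replicate 2 of the uninduced group. No member was called at either dose. At 10 ng/mL no gene of the table was called (0%), 1 member had an unadjusted p under 0.05, against 4.22% of all genes, and no member's libraries separated, against 4.6% of all genes higher. DESeq2 called no member there, and 0.186% of all genes. Libraries with the same replicate number deviated together in this comparison, and with the replicate number as a block 4 members were called higher, where 1.36% of all genes were called higher and 2.53% lower. These were SEC24D (0.46, adjusted p = 0.000175), SEC13 (0.38, adjusted p = 0.000782), SEC24C (0.30, adjusted p = 0.0014) and SEC23B (0.26, adjusted p = 0.00679). Without the block their log2 values were 0.41 ± 0.36, 0.40 ± 0.19, 0.30 ± 0.12 and 0.24 ± 0.19, all with an adjusted p of 0.978. The first and the last moved most with replicate 2. SEC24D read 0.04 without that library at 10 ng/mL and 0.96 without it at 0 ng/mL, and SEC23B 0.09 and 0.47. SEC13 ran from 0.24 without replicate 3 to 0.58 without replicate 1 at 10 ng/mL.

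At 100 ng/mL with thapsigargin, 1.53% of all genes were called higher and 9% lower, and each of the 10 members had a positive log2 value, from 0.13 for SAR1B to 0.63 for SEC24B. At an unadjusted p under 0.05, 6 members differed by edgeR, against 35.6% of all genes. Neither edgeR nor DESeq2 called a member, and DESeq2 called 3.37% of all genes higher. SEC24B (0.63 ± 0.20, adjusted p = 0.0439) and SEC24C (0.44 ± 0.15, adjusted p = 0.0493) came closest. SEC23A, SEC24C and SEC13 stood wholly above the uninduced libraries, against 16.1% of all genes. Leaving out replicate 1 at 100 ng/mL gave calls for SAR1A (0.66, adjusted p = 0.00178), SEC24A (0.70, adjusted p = 0.000854) and SEC24B (0.85, adjusted p = 8.06e-05), in a fit with 13.5% of all genes called higher, and leaving out replicate 2 of the uninduced group gave one for SEC24D (1.14, adjusted p = 0.0032), with 0.461% called higher. SEC24B had 72.9, 128 and 119.8 CPM and SAR1A 142, 200.4 and 222 CPM at 100 ng/mL with thapsigargin, so replicate 1 was the low library for both.

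From 10 to 100 ng/mL with thapsigargin, 0.235% of all genes were called higher and 5.32% lower, and no member was called. At an unadjusted p under 0.05, 3 members differed by edgeR, against 31.6% of all genes. DESeq2 called SEC24B, where it called 2.07% of all genes higher. The largest value was that of SEC24B, 0.72 ± 0.21 (adjusted p = 0.037), while SEC24D had 0.17 ± 0.24 (adjusted p = 0.67). Only SEC23A stood wholly above, against 12.9% of all genes. Without replicate 1 at 100 ng/mL, SAR1A, SEC24A and SEC24B were called here too, the last at 0.96 (adjusted p = 0.000777), in a fit that called 9.54% of all genes higher.

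Paralogs were compared by the log2 ratio of their counts within each library, which is free of library size, with an exact permutation test that exchanged libraries within each dose or treatment. There were 24 such tests, adjusted together, with a threshold of 0.05. The smallest possible p was 0.005 for a doxycycline test (400 arrangements) and 0.00025 for a thapsigargin test (8000). After adjustment, a doxycycline test could therefore pass only along with other tests of small p. One passed. Thapsigargin shifted SEC24D against SEC24C by a mean of 0.92 on the log2 scale (two-sided exact permutation p = 0.00025, the smallest these arrangements can give, adjusted p = 0.006), and by 1.16, 0.96 and 0.64 at 0, 10 and 100 ng/mL. SEC24D had 0.18 ± 0.015 counts per SEC24C count in uninduced vehicle libraries and 0.429 ± 0.195 with thapsigargin (mean ± SD, n = 3). At 100 ng/mL these were 0.312 ± 0.0527 and 0.493 ± 0.122.

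By doxycycline, SEC24D and SEC24C were not shown to differ, with shifts of 0.27 (exact permutation, adjusted p = 0.312) from the low dose and 0.52 (adjusted p = 0.0943) from the high dose over vehicle and thapsigargin libraries. Against SEC24A, SEC24D shifted by 0.81 at 10 ng/mL (exact permutation, adjusted p = 0.0514) and by 0.84 at 100 ng/mL (adjusted p = 0.072). Against SEC24B the values were 1.03 (adjusted p = 0.0514) and 0.91 (adjusted p = 0.0738). SEC24A and SEC24B against SEC24C gave -0.54 and -0.76 at 10 ng/mL, each with an adjusted p of 0.0514 by the exact permutation test. None of these passed, which, given the larger smallest p of the doxycycline tests, does not show that the ratios were unchanged. For SEC24D against SEC24A the shift at 100 ng/mL was 1.49 in vehicle and 0.19 with thapsigargin, with 0.336 ± 0.0153 SEC24D counts per SEC24A count in uninduced vehicle libraries, 0.753 ± 0.044 at 10 ng/mL and 0.945 ± 0.0638 at 100 ng/mL, against 0.742 ± 0.292 and 0.814 ± 0.138 with thapsigargin at 0 and 100 ng/mL.

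SEC23B had 1.08 ± 0.0701 counts per SEC23A count in uninduced vehicle libraries, 1.42 ± 0.0313 at 10 ng/mL and 1.58 ± 0.101 at 100 ng/mL. The shift over both treatments was 0.26 (exact permutation, adjusted p = 0.0738) from the low dose and 0.23 (adjusted p = 0.188) from the high dose, and with thapsigargin 0.24 (adjusted p = 0.072). At 100 ng/mL the vehicle libraries gave 0.54 and the thapsigargin libraries -0.09. SAR1B against SAR1A gave 0.06 (adjusted p = 0.545), -0.07 (adjusted p = 0.553) and -0.01 (adjusted p = 0.928) for the same 3 factors.

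**Figure D3:**
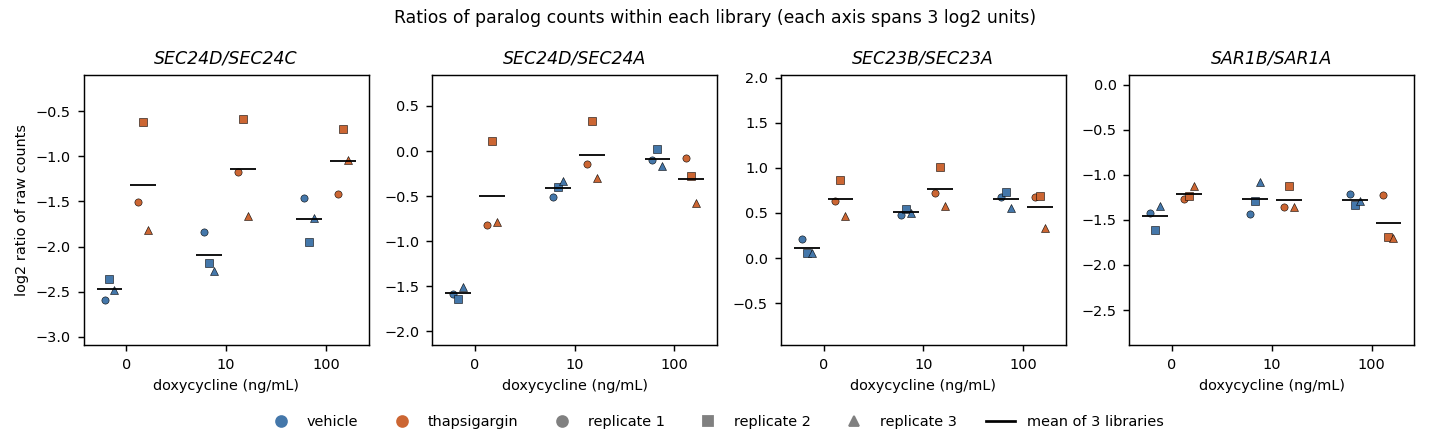
Log2 ratio of the raw counts of paralogs within each library (y axis, 3 log2 units in each panel) against the doxycycline dose in ng/mL, with vehicle in blue, thapsigargin in orange, 1 symbol per library and lines at the mean of 3 libraries. SEC24D/SEC24C lay higher with thapsigargin than with vehicle on average at each dose, by 1.16, 0.96 and 0.64, whereas the means of SAR1B/SAR1A differed by 0.25, -0.01 and -0.26.

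Levels of different genes can be set side by side only per length. Over the annotated exons of each gene, SEC24C made up 52.6% ± 3.18 of the SEC24 counts per kilobase in uninduced vehicle libraries, SEC24B 21.4% ± 2.28, SEC24A 20.9% ± 1.09 and SEC24D 5.09% ± 0.235 (SD, n = 3). The shares of SEC24A and SEC24B overlapped. In vehicle libraries at 100 ng/mL SEC24C and SEC24D had 61.6% ± 5.09 and 10.2% ± 0.923, while SEC24A had 15% ± 2.04 and SEC24B 13.1% ± 2.18. With thapsigargin at 0 ng/mL SEC24D had 11.5% ± 4.53. The lengths matter here, since SEC24D has 9920 bases of annotated exons but 4030 in its longest transcript, and by that length its share was 10.6% in uninduced vehicle libraries and 19.95% at 100 ng/mL. SEC24C had the largest mean share by either length, while SEC24D had the smallest of the 4 at 100 ng/mL by exons and the second largest by the longest transcript, ahead of SEC24A with 13.6% and SEC24B with 10.7%. SEC23B had 68.7% ± 1.36 of the SEC23 counts per kilobase in uninduced vehicle libraries by exons and 56.6% by the longest transcript.

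**Figure D4:**
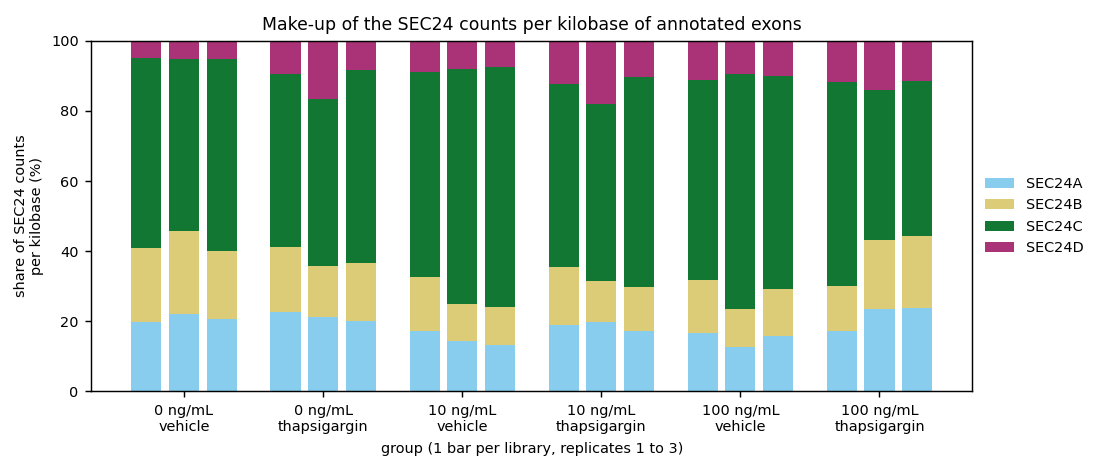
Share of each SEC24 paralog (y axis, percent of the SEC24 counts per kilobase of annotated exons) in each of the 18 libraries (x axis, replicates 1 to 3 of each group). The SEC24D segment averaged 5.09% in uninduced vehicle libraries and between 8.13% and 13.6% in the other groups, and SEC24C held the largest segment in every library.

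The counts of these paralogs could be told apart by sequence: in GENCODE transcripts, no window of 75 bases, the read length, was shared between SEC23A and SEC23B, among the 4 SEC24 genes, or between SAR1A and SAR1B. Of the windows of SAR1A 0.999% occurred in transcripts of other genes, as did 0.0454% of those of SAR1B and none of the other 8 members. SEC24A and SAR1B lie head to head on chromosome 5 and overlap by 483 bases on opposite strands. SEC31A overlaps THAP9 by 483 bases on the opposite strand in this annotation. It overlaps THAP9-AS1 by 7952 bases of gene span on its own strand, where strand cannot tell them apart. The library kit keeps the strand, but whether counting used it is not given in the sources used here, so reads in the overlaps could fall to either gene.

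Because several members moved together, their promoters were searched, on both strands, for the sequences bound by the factors XBP1 and ATF6, which act downstream of IRE1 and beside it. RefSeq promoters (GRCh38.p14, 250 bases before to 50 after each start) were at hand for 9 members, all but SEC24D. The motif TGACGTG, the core of the unfolded protein response element, is in 1.97% of 35116 promoters, and the shorter GACGTG within it in 7.81%. The ER stress element, CCAAT and CCACG 9 bases apart, is in 0.0769% and its second form, ATTGG and CCACG 1 base apart, in 0.0541%. Neither ER stress element was found in a member's promoter. The 7-base motif was in the window of 3 of the 9 genes (SEC13, SEC23A and SEC24A), in 4 of their 14 listed promoters, and the 6-base motif in 6 of 9 (SEC31A, SEC24C and SAR1A in addition), in 7 of 14. The match of SEC23A, from 4 bases before the start to 3 after, and that of SEC31A, from 5 bases before to the first base, cross the start and are not shown. Matches that lie wholly before the start are shown in 30-base windows, read along the gene, with the match in capitals:
SEC13: ctctggtctcgCACGTCActggaggatagg
SEC24A: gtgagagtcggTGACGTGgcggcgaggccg
SEC24C: ccccgaaatgcaGACGTGgcagaagaagtg
SAR1A: ttccggcgctgcCACGTCtcgcgcggtcag

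The SEC13 window (chr3:10321237-10321266, minus strand) holds the 7-base motif on the opposite strand, 143 to 137 bases before the start and in no annotated gene. SEC13 has 2 listed starts, and a 6-base match 46 to 41 bases before the other one, within a SEC13 exon, is not shown. The SEC24A window (chr5:134648595-134648624, plus strand) holds the 7-base motif 179 to 173 bases before the start, within an exon of SAR1B on the other strand. The SEC24C window (chr10:73744287-73744316, plus strand) and the SAR1A window (chr10:70170696-70170725, minus strand, match on the opposite strand) hold the 6-base motif and lie in no annotated gene. With only the groups compared, all their libraries, its filter and no replicate block, edgeR called SEC24C higher with doxycycline. It did not call the other genes with a match, SEC13, SEC23A, SEC24A, SEC31A and SAR1A. Of these, SEC13, SEC24A and SAR1A were called higher in some other fits, as was SEC31A for thapsigargin. With the replicate block SAR1A was called lower for thapsigargin in uninduced cells. SEC23B was called but had neither motif in its listed promoters, and SEC24D was called but not searched. Whether a match goes with a call was not tested. Such a match describes letters in a window and not binding.

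Around the coat, a list of 11 genes of COPII assembly and ER exit sites had 9 that passed the filter at 100 ng/mL in vehicle. One of them was called higher, PREB, the exchange factor that loads SAR1 with GTP (1.01 ± 0.14, adjusted p = 0.000205), and none lower. Of 16 genes for tethering and fusion of ER-derived vesicles 1 was called higher, STX5, a Golgi SNARE (0.78 ± 0.13, adjusted p = 0.00118). The study had listed both among genes higher at this dose. Of 11 cargo receptors none was called higher and 3 lower: ERGIC3 (-2.11 ± 0.11, adjusted p = 1.68e-07), ERGIC1 (-2.04 ± 0.12, adjusted p = 3.62e-07) and MCFD2 (-0.71 ± 0.12, adjusted p = 0.00101). ERGIC1 and ERGIC3 cycle between ER and Golgi, and MCFD2 is the partner of the lectin LMAN1. In this comparison 0.838% of all genes were called higher and 7.49% lower. The list medians on the log2 scale were 0.20 for assembly, 0.23 for tethering and -0.17 for receptors, beside 0.22 for the coat. At 10 ng/mL in vehicle edgeR called 0 genes of the 3 lists, and 4, 8 and 6 had an unadjusted p under 0.05, against 30.5% of all genes. DESeq2 called PREB, STX5, TRAPPC6A and SURF4 higher and ERGIC1 lower there, with 0.499% of all genes higher and 1.29% lower.

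With thapsigargin in uninduced cells, 6.45% of all genes were called higher and 4.74% lower. Of the 9 assembly genes that passed the filter 3 were called higher. These were PREB (0.82 ± 0.13, adjusted p = 0.00102), MIA3, which organises exit sites for collagen (0.77 ± 0.13, adjusted p = 0.00117), and TFG, which clusters COPII vesicles at exit sites (0.47 ± 0.11, adjusted p = 0.00672). Of the 16 tethering and fusion genes STX5 (0.92 ± 0.13, adjusted p = 0.000366) and the SNARE GOSR2 (0.70 ± 0.12, adjusted p = 0.00121) were called higher. Of the 11 receptors ERGIC2 was called lower (-0.75 ± 0.16, adjusted p = 0.00434). The list medians were 0.22, 0.0021 and 0.069, beside 0.27 for the coat.

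Between 100 and 0 ng/mL with thapsigargin, the coat had no call and a median of 0.41. There 1.53% of all genes were called higher and 9% lower. Of the 11 receptors 4 were called lower: ERGIC1 (-2.26), ERGIC3 (-2.25), the lectin LMAN2 (-1.17) and MCFD2 (-1.01), as log2 values with adjusted p from 2.61e-06 to 0.00293. SEC16A, the scaffold of exit sites, was lower (-0.63 ± 0.13, adjusted p = 0.00506). Of the tethering genes, the TRAPP subunit TRAPPC3 was lower (-0.68, adjusted p = 0.00467) and TRAPPC1 higher (0.66, adjusted p = 0.00892).

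**Figure D5:**
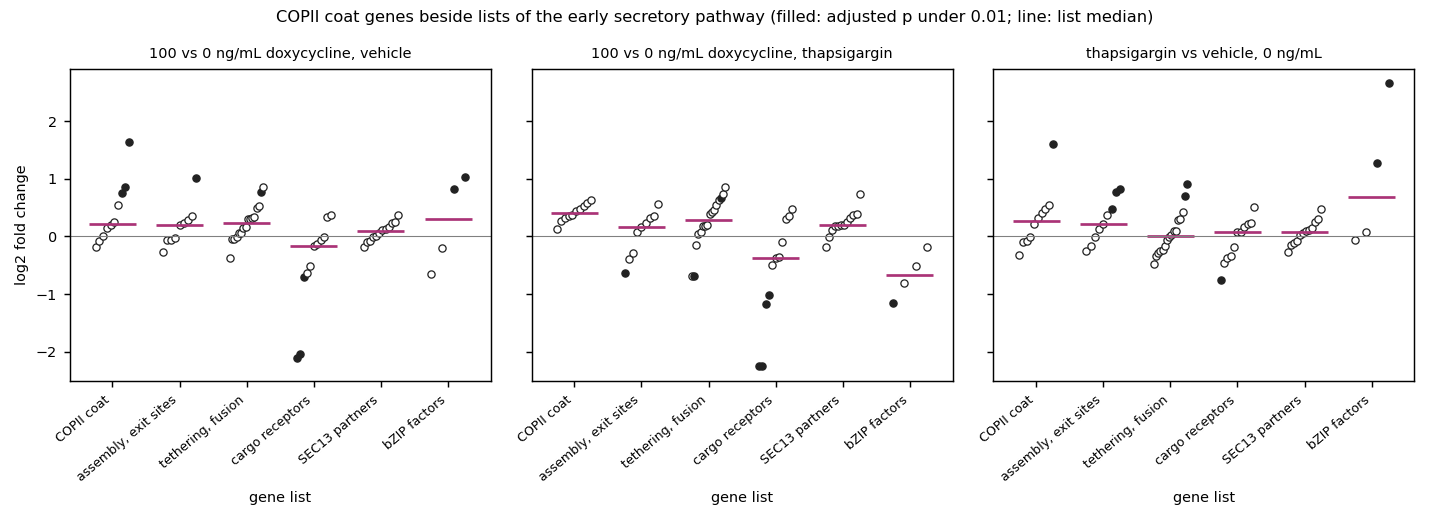
Log2 fold change (y axis) of the genes in 6 lists (x axis) in 3 comparisons, with 1 circle per gene, filled at an adjusted p under 0.01, and a line at the list's median. The filled coat genes lie above 0 in the left and right panels and there are none in the middle panel, and the lowest receptors, ERGIC1 and ERGIC3, lie between -2.26 and -2.04 in the left and middle panels.

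SEC13 was the member with partners outside the coat. Of 12 such partners in the nuclear pore Y complex and in GATOR2, 0 were called by edgeR in the 9 comparisons or 2 interactions, and at 100 ng/mL in vehicle 1 had an unadjusted p under 0.05 by edgeR, against 29.3% of all genes. DESeq2 made 1 call over all of these, MIOS, which was higher with thapsigargin in uninduced cells, where it called 6.28% of all genes higher. At 100 ng/mL in vehicle the median log2 difference of the partners was 0.095, beside 0.54 for SEC13.

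Of 4 bZIP factors known to drive secretory genes, XBP1 was called by edgeR in 6 of the 9 comparisons and CREB3L2 in 3. XBP1, whose mRNA IRE1 splices, was higher at 10 ng/mL (0.84 ± 0.10, adjusted p = 0.00527), at 100 ng/mL (1.03 ± 0.10, adjusted p = 1.85e-05) and with thapsigargin at 0 ng/mL (2.66 ± 0.10, adjusted p = 1.78e-09) and 10 ng/mL (1.61 ± 0.12, adjusted p = 9.40e-05), the last with no coat gene called. In the first 3 of these CREB3L2 had 0.77 ± 0.10, 0.83 ± 0.10 and 1.28 ± 0.15, with adjusted p of 0.00542, 9.92e-05 and 9.54e-05. Between 100 and 0 ng/mL with thapsigargin XBP1 was lower (-1.16 ± 0.12, adjusted p = 3.65e-05), as it was between 100 and 10 ng/mL (-0.96 ± 0.14, adjusted p = 0.00113), and its interaction at 100 ng/mL was -2.14 ± 0.13 (adjusted p = 1.20e-06). SEC24D had 0.58 and -1.01 in the same 2 contrasts, neither called, and 0.17 between 100 and 10 ng/mL. Neither edgeR nor DESeq2 called CREB3L1 or ATF6.

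The genes whose log2 CPM ran most like that of SEC24D over the 18 libraries, of 14052 other genes with at least 1 CPM in 3 libraries, were PPAPDC1B (Pearson r = 0.975), ARMCX3 (r = 0.971), ALG2 (r = 0.946), TMEM39A (r = 0.945) and SEC23B (r = 0.939), the last in place 5. SEC31A was in place 49 with r = 0.867 and SEC24C in place 503 with r = 0.677, and among the members SAR1A had the lowest r, 0.12. The libraries fall into 6 treated groups that all genes share, so these values describe a likeness of pattern only.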

How the data were processed

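The authors aligned single-end reads of 75 cycles from KAPA stranded mRNA libraries with STAR to hg38, per the labels and the submitters' processing notes, which also name DESeq2, and deposited raw counts per gene symbol for 18 libraries. Versions, annotation and strand setting are not given in the sources used here. The table holds 25435 rows, 25433 distinct symbols and 0 unused columns of values. Groups and replicate numbers came from the labels. Counts of replicates differed beyond sampling noise in every pair (chi-square per degree of freedom 7.33 to 63.8) and were counted separately.

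Members and gene lists were chosen with earlier results of these data known. Each comparison used its own groups. Genes passing filterByExpr (minimum count 10) were TMM-normalized and tested with edgeR 4.0.16 (glmQLFit, glmQLFTest) in R 4.3.3, adjusted by Benjamini-Hochberg over all genes at 0.01, and interactions used 12 libraries. The SE is the log2 fold change over the square root of F. By a fixed rule the text names all members, called genes of the lists, and the 5 genes most like SEC24D. Paralog ratios added 0.5 to each count and used exact permutation tests, since 3 libraries against 3 alone cannot give a two-sided p below 0.1. Replicate numbers come from the labels alone. Deviations of same-numbered libraries correlated above 0.1 in all 3 pairs only for 10 against 0 ng/mL with thapsigargin (r = 0.6, 0.54 and 0.68). In a simulation where 200 genes changed 2-fold, edgeR recovered 86.5% for 100 against 0 ng/mL in vehicle, among 14327 genes, and 29.0% for its interaction, among 14629. It drew each gene independently, without deviations that a whole library shares, so these shares may not hold for the real libraries. Positions and lengths came from GENCODE 29 (GRCh38) and promoters from RefSeq. Alternatives were DESeq2 1.42.0, RLE size factors, no filter, all 6 groups in 1 fit, a replicate block, other gene lengths, and each library left out. Figures used matplotlib 3.10.9 in Python 3.11.15.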

Additional observations from a re-analysis of the deposited data

How the results depend on the processing

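The 3 calls at 100 ng/mL in vehicle (SEC23B, SEC24C and SEC24D) were made in all 5 other fits and all 6 fits without 1 library. Replicate spread, with 3 libraries per group, limits precision more than depth does. The number of members called moved as follows, and the cause was not tested. At 10 ng/mL in vehicle it went from 2 to 3 with DESeq2 (0.499% of all genes higher) and 1 with RLE size factors (0.124%). It went to 4 with no filter (0.781% higher) and 0 with all 6 groups in 1 fit (0.0133% higher). At 100 ng/mL in vehicle it went from 3 to 4 with DESeq2 and with no filter (1.36% and 1.2% higher), with SEC13 in addition. From 10 to 100 ng/mL in vehicle it went from 0 to 1 with DESeq2, with no filter and with the replicate block. In these fits 0.0602%, 0.0251% and 0.701% of all genes were higher. For thapsigargin in uninduced cells it went from 1 to 3 with no filter (6.04% of all genes higher) and 6 with the replicate block (12.8% higher and 12% lower), where SAR1A was lower and SEC23B, SEC24A, SEC24C, SEC24D and SEC31A were higher. For thapsigargin at 10 ng/mL it went from 0 to 2 with DESeq2 (3.26% of all genes higher) and 1 with no filter (1.85%). With the block it went to 4 (SEC24A, SEC24B, SEC24D and SEC31A, with 13.4% of all genes higher). At 100 ng/mL it went to 1 with DESeq2 (1.32%) and 1 with all 6 groups (1.55%), SEC24A each time. Among thapsigargin libraries it went from 0 to 4 with the block at 10 against 0 ng/mL (1.36% of all genes higher). At 100 against 10 ng/mL it went to 1 with DESeq2 (2.07%) and 1 with no filter (2.85%), SEC24B each time. Same-numbered libraries deviated together in all 3 pairs only for 10 against 0 ng/mL with thapsigargin. Elsewhere this was mixed. The r was 0.7, -0.043 and 0.67 for thapsigargin at 10 ng/mL, and 0.065, 0.35 and 0.45 at 0 ng/mL. In vehicle it was 0.72, 0.47 and -0.084 between both doses, and -0.22, -0.57 and 0.16 for 100 against 0 ng/mL. The block moved no other count of members called. With the block, members at an unadjusted p under 0.05 rose from 2 to 5 between both vehicle doses (16.1% to 30.3% of all genes). For thapsigargin they rose from 6 to 7 at 0 ng/mL (35.9% to 44.2%) and 3 to 5 at 10 ng/mL (24.7% to 44.7%). At 10 against 0 ng/mL with thapsigargin they rose from 1 to 6 (4.22% to 24.1%). For the interaction at 10 ng/mL they rose from 1 to 2 (4.47% to 11.7%). At 100 against 0 ng/mL they fell from 5 to 4 in vehicle (29.3% to 21.7%) and 6 to 5 with thapsigargin (35.6% to 30.5%). At 100 against 10 ng/mL with thapsigargin they fell from 3 to 2 (31.6% to 23.3%). Over all genes, calls went with the block from 28 to 124, 1203 to 750 and 356 to 1224 in vehicle (10 against 0, 100 against 0 and 100 against 10 ng/mL), from 1611 to 3571, 212 to 3620 and 29 to 4 for thapsigargin at 0, 10 and 100 ng/mL, from 0 to 564, 1512 to 1390 and 805 to 384 among thapsigargin libraries, and from 0 to 1 and 6 to 3 for the interactions.

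Without 1 library in turn, the members called ranged from 0 to 5 at 10 ng/mL and 3 to 4 at 100 ng/mL in vehicle, 0 to 1 between these doses, 0 to 4, 0 to 2 and 0 to 3 for thapsigargin at 0, 10 and 100 ng/mL, 0 to 3 at 100 against 0 and 100 against 10 ng/mL with thapsigargin, and 0 to 2 for the interaction at 100 ng/mL. For thapsigargin, leaving out its replicate 3 added SEC23B, SEC24A and SEC31A in uninduced cells (7.48% of all genes higher) and SEC24D and SEC31A at 10 ng/mL (2.47%), and leaving out its replicate 1 added SEC24A, SEC24B and SEC31A at 100 ng/mL (9.78%) and SAR1A and SEC24B to the interaction (5.79%). Leaving out vehicle replicate 1 at 10 ng/mL added SEC24D between the doses (0.0748% of all genes higher). SEC24D from 10 to 100 ng/mL with thapsigargin ran from -0.0099 to 0.58, the one member value printed in the text that changed sign.

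Of the ratios that missed the threshold, some passed without 1 library. Their log2 ranges were, for 0 to 10 ng/mL, 0.19 to 0.31 (SEC23B/SEC23A), 0.72 to 0.96 (SEC24D/SEC24A), 0.87 to 1.23 (SEC24D/SEC24B), -0.62 to -0.47 (SEC24A/SEC24C) and -0.88 to -0.69 (SEC24B/SEC24C). For 0 to 100 ng/mL they were 0.76 to 0.99 (SEC24D/SEC24A), 0.81 to 1.11 (SEC24D/SEC24B) and 0.40 to 0.69 (SEC24D/SEC24C). For thapsigargin they were 0.20 to 0.28 (SEC23B/SEC23A), 0.31 to 0.46 (SEC24D/SEC24A), 0.50 to 0.70 (SEC24D/SEC24B), 0.18 to 0.27 (SEC24A/SEC24B) and 0.45 to 0.61 (SEC24A/SEC24C). SAR1B/SAR1A with thapsigargin, near 0, ran from -0.060 to 0.023. By the longest transcript and by coding length, the uninduced vehicle share of SEC23B was 56.6% and 51.8% (68.7% by exons), of SEC24D 10.6% and 9.24% (5.09%), and of SAR1B 24.6% and 26.7% (18.7%).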
